A study of Mus musculus with 2 samples.

Results

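The interleukin 10 family cluster is a stretch of mouse chromosome 1 that holds the cytokine genes Il24, Il20, Il19 and Il10. Its accessible regions were collected as every peak whose summit lay in the body of one of these 4 genes or within 30 kb on either side. That gave 18 of the 84666 merged regions of the series, made of 18 of 78016 peaks in replicate 1 and 16 of 74653 peaks in replicate 2. A summit within 1000 bp of the start of a protein-coding transcript made a region a promoter region, and any other summit made it distal.

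The series profiled open chromatin by ATAC-seq, in which a transposase cuts and tags DNA that is not tightly packed around nucleosomes. It holds 2 libraries of 1 group, primary T cells of mouse strain C57BL/6NJ, numbered as biological replicates 1 and 2. Each has a sample record of its own, but both point to the same donor record. The labels do not say if separate mice were used, so the spread between the libraries may be technical. Genotype beyond the strain and any treatment are not stated, sex was not collected, and age and stage are given as unknown. The labels call the cells T cells and link to a protocol for differentiating CD4+ T cells. Strings in the peak names (Th0, 72hrs, ASTARR.insert) are left unexplained by the labels, and no T-cell subset is assumed here. With 1 group and 2 libraries no test between conditions is possible, and every value below is a description.

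The depth of each library is unknown, because the files hold peaks and not reads. The peak lists held 78104 and 74733 peaks, and the smallest −log10 q in them was 1.02 and 1.01. Among T-cell marker genes, 9 of the 10 found in the annotation had a promoter region in both libraries, the exception being Cd247, whose start lay in a peak with its summit further away. The same held for 2 of 6 B-cell, 1 of 6 myeloid and 3 of 6 epithelial marker genes, and for 62.8% of all protein-coding genes. In bulk material, a low peak can come from a few open cells or from weak opening in all cells, and these cannot be told apart.

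IL-10 is a cytokine that restrains inflammation, and activated and regulatory T cells are among its sources. It signals through a receptor of Il10ra and Il10rb, the kinases Jak1 and Tyk2, and the transcription factor Stat3. IL-19, IL-20 and IL-24 are related cytokines that act mostly on epithelial cells through receptors in which Il20rb pairs with Il20ra or Il22ra1. Genes of this kind are commonly controlled by distal enhancers as well as by the promoter, and open chromatin is one sign of such elements.

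In the mm10 build, the genes lie in the order Il24, Il20, Il19 and Il10. Il24 occupies chr1:130882074-130887454, Il20 chr1:130906985-130911451 and Il19 chr1:130932656-130940115, all on the minus strand. Il10 occupies chr1:131019845-131024974 on the plus strand. The windows of the first 3 genes overlap and merge into chr1:130852074-130970115, which is 118.0 kb long. The Il10 window, chr1:130989845-131054974, is 65.1 kb long, and 19.7 kb between the windows belong to neither. Fcmr, which encodes a receptor for IgM, lies inside the left window, and the 3′ end of Mapkapk2, a kinase gene downstream of p38, lies at the right edge. The last bases of Pigr, the gene of the polymeric immunoglobulin receptor, reach into the left window.

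Of the 18 regions, 16 were shared, meaning that peaks of both libraries overlapped by at least 1 bp. The share of 88.9% compared with 79.0% of all merged regions of the genome. The other 2 were found in replicate 1 alone. Among the 16 shared regions 2 were promoter regions, in Il24 and in Il10, and 14 were distal. By position relative to protein-coding genes alone, 5 of the 16 summits lay in introns, 11 between genes and 0 in exons.

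The sequences of 5 regions with the highest signal values are shown first, since they are the strongest openings of the cluster. Each is 201 bp of the GRCm38 plus strand centred on the replicate 1 summit, read from the reference assembly and not from the C57BL/6NJ libraries. Capitals mark matches on either strand to published consensus sequences of AP-1 (TGANTCA), CRE (TGACGTCA), RUNX (TGTGGT), STAT (TTCNNNGAA), Maf (TGCTGAC), NFIL3 (TTANGTAA), IRF (a repeat of GAAA with a gap of 2 bases) and the CTCF core (the most conserved bases of the CTCF consensus). The CTCF core was added after the sequences had been seen. A match is a description of letters, not a binding site.
18.5 kb downstream of the Il10 start, chr1:131038231-131038431: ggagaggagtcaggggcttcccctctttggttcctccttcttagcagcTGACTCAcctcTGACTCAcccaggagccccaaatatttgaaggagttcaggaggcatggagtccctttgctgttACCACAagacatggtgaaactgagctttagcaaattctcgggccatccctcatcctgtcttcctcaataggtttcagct
155.4 kb upstream of it, chr1:130864364-130864564: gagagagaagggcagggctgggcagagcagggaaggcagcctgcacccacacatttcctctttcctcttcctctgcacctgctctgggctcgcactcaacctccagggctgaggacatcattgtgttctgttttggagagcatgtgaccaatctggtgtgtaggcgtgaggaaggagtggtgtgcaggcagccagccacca
117.2 kb upstream, between Il24 and Il20, chr1:130902558-130902758: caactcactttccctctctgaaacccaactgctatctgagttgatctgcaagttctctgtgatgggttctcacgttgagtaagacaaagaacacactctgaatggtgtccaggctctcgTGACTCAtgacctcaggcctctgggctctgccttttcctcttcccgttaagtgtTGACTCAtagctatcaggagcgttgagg
133.2 kb upstream, inside Il24, chr1:130886570-130886770: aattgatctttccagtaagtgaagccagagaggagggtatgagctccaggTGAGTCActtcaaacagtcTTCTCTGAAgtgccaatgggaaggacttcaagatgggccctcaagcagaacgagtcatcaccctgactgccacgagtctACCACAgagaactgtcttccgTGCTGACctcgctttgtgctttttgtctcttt
25.9 kb upstream, chr1:130993845-130994045: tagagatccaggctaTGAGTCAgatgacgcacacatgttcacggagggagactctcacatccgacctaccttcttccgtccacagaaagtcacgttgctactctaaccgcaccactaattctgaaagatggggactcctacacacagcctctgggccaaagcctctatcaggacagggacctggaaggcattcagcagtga

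The regions nearest to the Il10 start are shown next, together with the region at the right end of the window, which was chosen after its sequence was seen because it holds a CTCF core match.
9.2 kb upstream, chr1:131010566-131010766: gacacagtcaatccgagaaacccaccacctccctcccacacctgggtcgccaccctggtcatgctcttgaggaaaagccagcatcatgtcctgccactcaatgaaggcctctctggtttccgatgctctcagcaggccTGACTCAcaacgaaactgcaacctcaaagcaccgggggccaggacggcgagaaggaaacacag
0.8 kb downstream, Il10 intron 1, chr1:131020559-131020759: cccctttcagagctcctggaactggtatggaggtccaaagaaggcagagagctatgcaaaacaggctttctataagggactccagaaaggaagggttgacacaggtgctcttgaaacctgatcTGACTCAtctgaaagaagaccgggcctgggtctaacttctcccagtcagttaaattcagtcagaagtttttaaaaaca
2.9 kb downstream, Il10 intron 4, chr1:131022694-131022894: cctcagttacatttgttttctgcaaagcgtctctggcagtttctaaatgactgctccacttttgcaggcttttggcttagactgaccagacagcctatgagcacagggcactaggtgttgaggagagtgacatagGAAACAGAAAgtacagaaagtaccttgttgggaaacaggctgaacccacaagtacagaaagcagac
8.3 kb downstream, chr1:131028031-131028231: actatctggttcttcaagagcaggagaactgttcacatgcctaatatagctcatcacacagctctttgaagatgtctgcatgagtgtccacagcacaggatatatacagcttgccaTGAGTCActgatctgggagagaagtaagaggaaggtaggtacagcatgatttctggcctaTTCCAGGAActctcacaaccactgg
33.6 kb downstream, chr1:131053313-131053513: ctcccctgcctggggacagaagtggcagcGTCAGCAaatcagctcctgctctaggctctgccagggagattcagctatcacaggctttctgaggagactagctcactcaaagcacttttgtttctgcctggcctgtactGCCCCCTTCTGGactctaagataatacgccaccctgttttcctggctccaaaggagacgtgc

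The promoter class was set by the 1000 bp rule, and neither promoter region covered a gene's 5′ end. Il10 and Il24 had such a region in each library and Il20 and Il19 had none, that is 2 of 4 members against 62.8% of 21853 protein-coding genes. Within 500 bp of a start, 0 of 4 members had a summit in both libraries, against 58.0% of genes. The 5′ base of the gene lay inside a peak of both libraries for 0 of 4 members, against 55.1% of genes.

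At Il10, the promoter-class region was a weak one inside intron 1. The peak, chr1:131020572-131021148, began 727 bp downstream of the transcription start and reached exon 2. Its signal value, the deposited measure of peak height read here as fold enrichment over the caller's background, was 3.50 in replicate 1 and 3.82 in replicate 2 (mean 3.66 ± 0.223, SD, n = 2). These values stood at percentiles 4.7 and 6.3 of all shared promoter regions, so nearly all promoter regions of the genome were higher. The −log10 q, the caller's confidence that the peak exceeds background, was 19.4 and 17.0. The sequence printed for intron 1 holds an AP-1 match centred 26 bp from the summit.

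At Il24, the promoter-class region was strong. Its peak, chr1:130886253-130886931, lay in intron 1 of the 6-exon transcript with its summit 784 bp downstream of that transcript's start. The start of a shorter transcript with 5 exons lies on the other side, so that the summit is 674 bp upstream of it and the peak ends 257 bp short of it. The signal value was 13.4 in replicate 1 and 14.3 in replicate 2 (13.9 ± 0.606, SD, n = 2), at percentiles 71.9 and 84.8 of shared promoter regions. Its −log10 q was 85.2 and 77.1, below the promoter medians of 153 and 107. In both libraries the Il24 region was higher in signal than the Il10 intron 1 region, and the gap was far larger than the spread between the libraries at either.

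Il20 and Il19 had no peak near their starts in either library. The summit nearest to the Il20 5′ end was 8793 bp away and that nearest to the Il19 5′ end was 13452 bp away in replicate 1. No summit lay in either gene body. The stretch without a shared summit around Il19 ran for 53.0 kb, from position 130926663 to 130979697, and was the longest in the span of the 4 genes. A peak of replicate 2 alone lay in it, 47.2 kb upstream of Il10, with a signal of 2.33 and a −log10 q of 1.09.

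**Figure D1:**
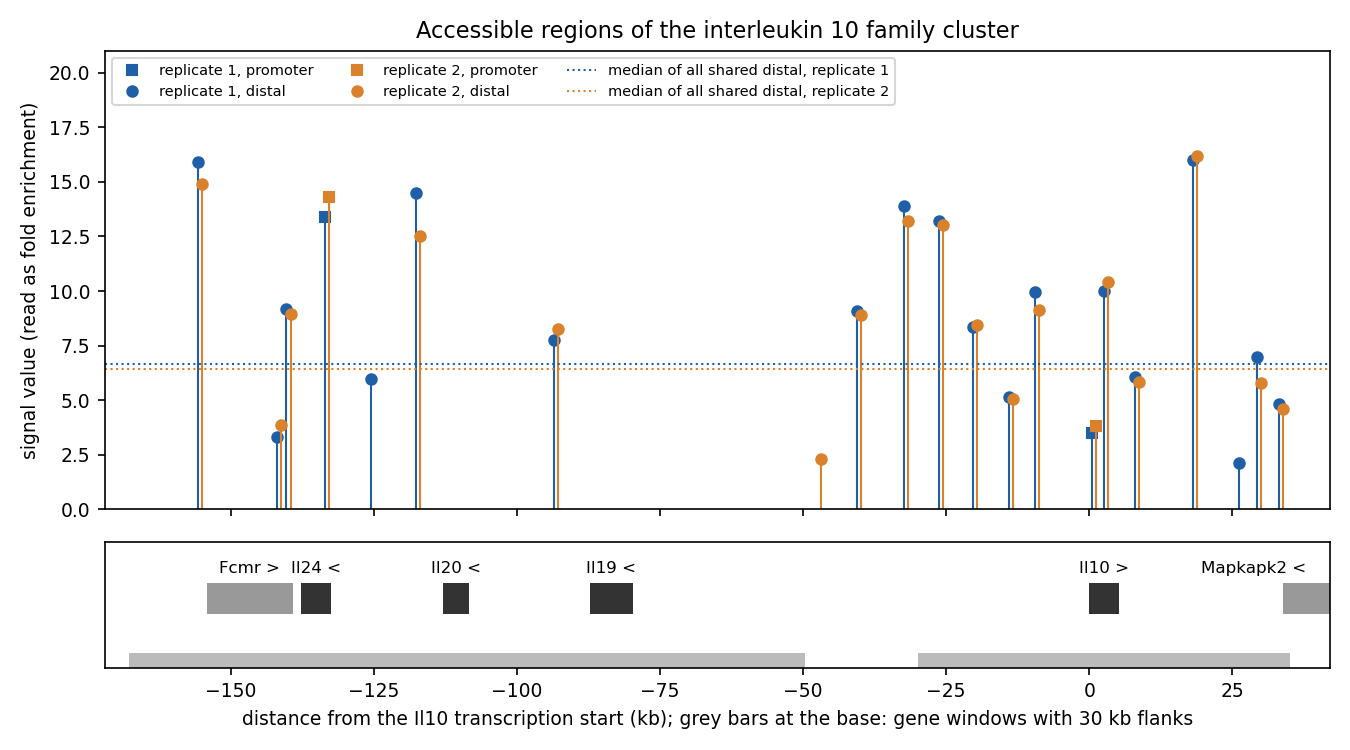
Signal value of each peak (vertical axis, read as fold enrichment) against distance of its summit from the Il10 start in kb, for replicate 1 (blue) and replicate 2 (orange), drawn slightly to either side of the true position. Squares are promoter regions, circles distal ones, dotted lines the medians of all shared distal regions (6.68 and 6.41), and the lower panel shows the genes. Regions crowd around Il10, while Il19 lies in a stretch of 53.0 kb with no shared summit and 1 weak peak of replicate 2 (2.33).

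The distal regions were uneven along the cluster and were concentrated around Il10. Its window held 9 shared distal regions, the Il24 and Il20 windows 4 each, and the Il19 window 2. Because the windows overlap, 3 of the 4 regions counted for Il24 and both of those counted for Il19 are also counted for Il20. All 4 members had at least 1 shared distal region, against 76.0% of protein-coding genes. The Il10 count of 9 or more was reached by 7.63% of protein-coding genes, and the median gene had 3.

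Scaled to window length, Il10 had 13.8 shared distal regions per 100 kb and stood at percentile 99.5 of protein-coding genes. Only 114 genes, 0.522%, were denser. Il20 had 6.2 and Il24 had 6.1 per 100 kb, at percentiles 81.8 and 81.1. Il19 had 3.0 per 100 kb, which was the median of all genes and gave percentile 49.9. The whole cluster had 7.6 per 100 kb, at percentile 89.5. A gene with a short body has a window made mostly of flank, so density and count rank genes differently, and by count alone Il10 stood at percentile 93.3.

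**Figure D2:**
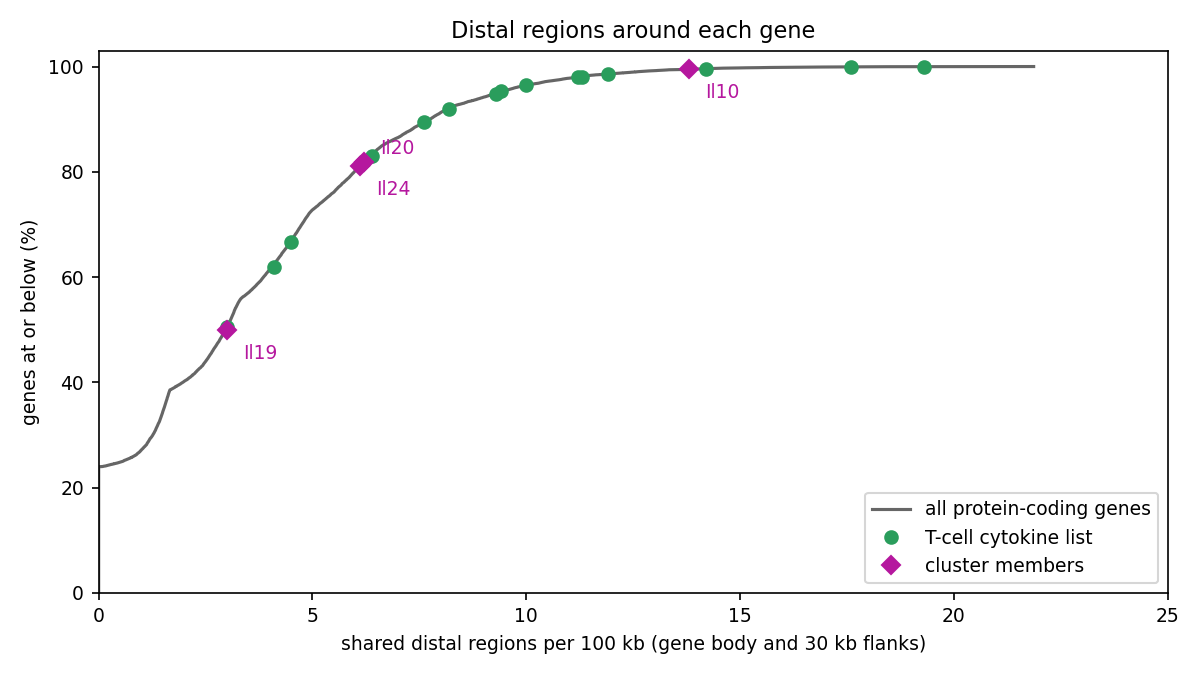
Percentage of protein-coding genes (vertical axis) with at most a given number of shared distal regions per 100 kb (horizontal axis). Regions were counted over gene body and 30 kb flanks. The grey line shows all protein-coding genes, and diamonds show the 4 cluster genes. Green circles show 16 listed cytokine genes (legend: T-cell cytokine list). Il10 lies at 13.8 per 100 kb near the top of the curve, Il20 and Il24 lie at 6.2 and 6.1, and Il19 lies at 3.0.

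Around Il10, 4 distal regions lay upstream, 1 inside the gene and 4 downstream, with a median distance of 5.9 kb between neighbouring shared summits. The upstream series began 25.9 kb before the start, at chr1:130993551-130994413. There the signal was 13.2 and 13.0 and the −log10 q was 299 and 223, the highest of the cluster in both libraries. The next region, 20003 bp upstream at chr1:130999109-131000972, was the widest, at 1864 and 1604 bp, with signals of 8.34 and 8.43.

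Closer in, the region 13.6 kb upstream had signals of 5.17 and 5.07, below the median of all distal regions. The region 9.2 kb upstream, chr1:131010219-131011341, had 9.94 and 9.15, with a −log10 q of 157 and 108. So the upstream regions did not fall off or rise steadily towards the gene. The printed sequence of the region 9.2 kb upstream holds an AP-1 match 41 bp from the summit.

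Inside Il10, the region in intron 4 at chr1:131022400-131023255 touched exon 4. Its signal of 10.01 and 10.4 and its −log10 q of 156 and 123 were well above those of the intron 1 region in both libraries. Intron 4 also held the only IRF consensus match of the cluster, 39.5 bp from the summit, and 2.31% of all shared regions hold that consensus in the same 101 bp.

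Downstream of Il10, the region at 18.5 kb, chr1:131038033-131038813, had the highest mean signal of the cluster. Its values were 16.0 and 16.2 (16.1 ± 0.131, SD, n = 2), at percentiles 97.5 and 98.7 of shared distal regions, and its −log10 q was 230 and 196. The printed sequence holds a pair of AP-1 matches, 49 and 38 bp to one side of the summit, and a RUNX match 24.5 bp to the other.

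The other downstream regions were weaker. At 8.3 kb the signal was 6.08 and 5.84. At 29.6 kb it was 6.99 and 5.78, and at 33.6 kb, next to the 3′ end of Mapkapk2, it was 4.85 and 4.60. Of these, only the region at 29.6 kb reached the distal median, and only in replicate 1. A region at 26.5 kb was seen in replicate 1 alone, with a signal of 2.13 and a −log10 q of 2.499.

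On the Il24 side, the strongest distal region lay 155.4 kb upstream of Il10 at chr1:130863997-130865044. It had signals of 15.9 and 14.9 and percentiles of 97.4 and 96.9. Its summit was 1205 bp upstream of the start of Fcmr, just outside the promoter distance, so it sits at a neighbour of the cytokine genes. A pair of regions lay in introns of Fcmr, past the 3′ end of Il24. That in intron 6 was the weakest distal region shared by both libraries in the windows, with 3.31 and 3.85, and that in intron 7 had 9.19 and 8.96 with a −log10 q of 172 and 122.

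Between Il24 and Il20, the region at chr1:130902227-130903116 had signals of 14.5 and 12.5, at percentiles 94.5 and 90.5 of shared distal regions. Its summit is only 2 bp inside the Il19 window, so the Il19 count of 2 rests on it. A weaker region in the same interval, 125.1 kb upstream of Il10, was seen in replicate 1 alone at 5.96. Between Il20 and Il19, the region at chr1:130926415-130926762 had 7.78 and 8.28, and 70.6% of its 201 bp are marked as repeats in the reference, the highest share of the cluster.

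Some openings lay just past the 30 kb limit. In the stretch between the windows there were 3 regions, 2 of them shared. The one 32.1 kb upstream of Il10, 2.1 kb outside its window, had 13.9 and 13.2, as high as the first region inside at 13.2 and 13.0. The one 40.1 kb upstream had 9.10 and 8.91. Beyond the outer edges the nearest shared regions were in an intron of Pigr, 1.5 kb outside, with 12.2 and 11.8, and in an intron of Mapkapk2, 5.5 kb outside, with 6.72 and 6.82.

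**Figure D3:**
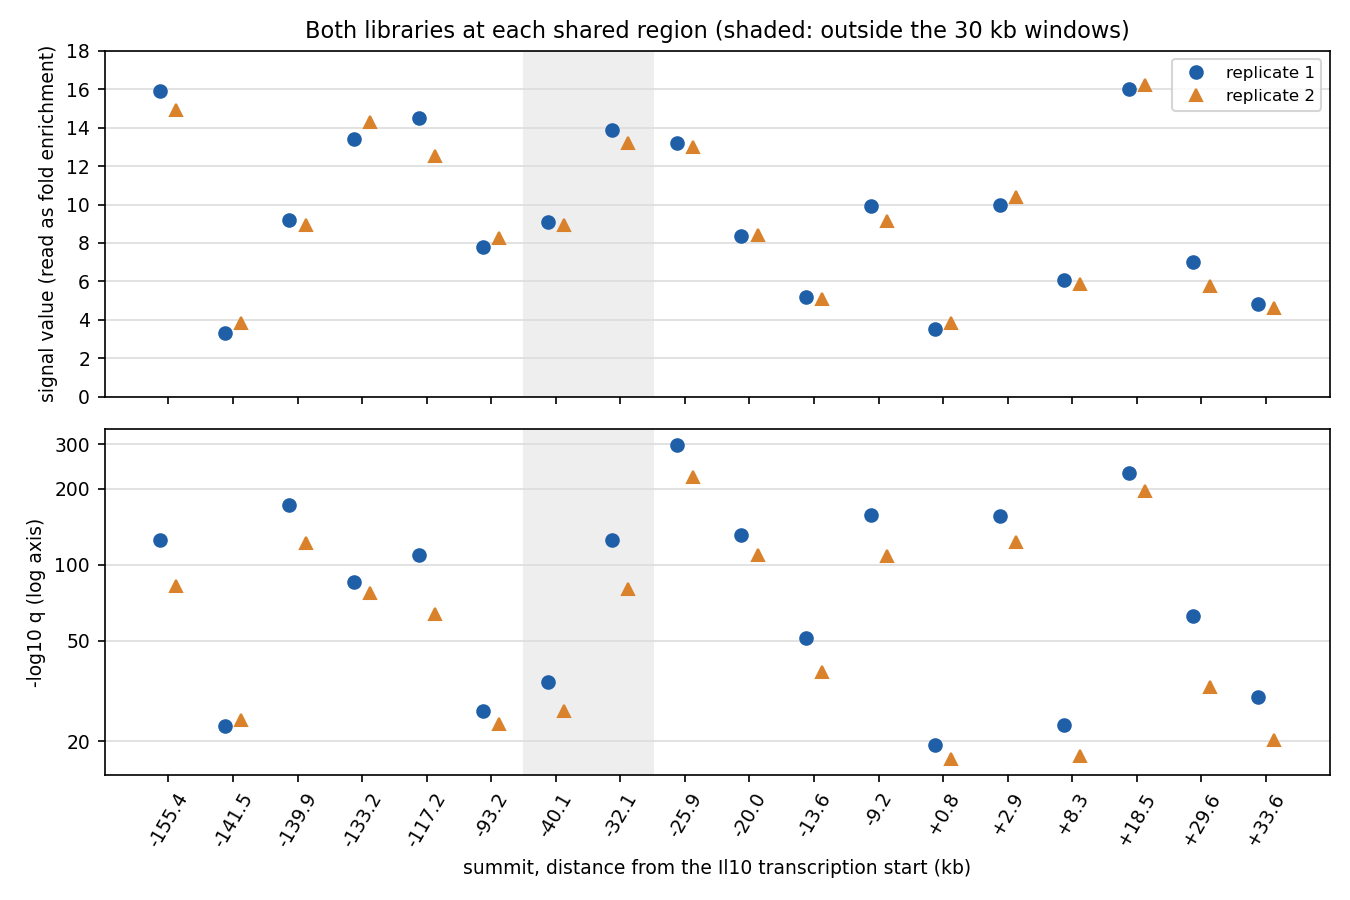
Signal value (upper panel, read as fold enrichment) and −log10 q (lower panel, log axis) of each shared region in replicate 1 (circles) and replicate 2 (triangles), ordered along the chromosome and named by distance from the Il10 start in kb. The shaded pair lies outside the windows. Signals of the libraries stay close at every region, and −log10 q is higher in replicate 1 at 15 of the 16 regions inside the windows.

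The distal regions of the cluster were on the strong side of the genome's distribution. Their median signal was 8.77 in replicate 1 and 8.69 in replicate 2, against 6.68 and 6.41 for all shared distal regions. Above the genome-wide median were 10 of 14 in replicate 1 and 9 of 14 in replicate 2, and above its upper quartile were 6 and 5. The median −log10 q was 117 and 73.3, against 31.2 and 22.6. The 16 shared regions of the cluster, its 2 promoter regions included, were wide as well, with median widths of 788 and 706 bp. The medians for all shared distal regions, a set without promoter regions, were 619 and 606 bp.

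The libraries gave nearly the same picture of the cluster. The log2 ratio of replicate 1 to replicate 2 signal had a median of 0.02 and an SD of 0.13 over the 16 regions, against 0.06 and 0.23 over 65721 regions matched 1 to 1. It ranged from −0.22 in Fcmr intron 6 to 0.27 at the region 29.6 kb downstream of Il10. Summits differed by 0 to 60 bp between the libraries, with a median of 1.00 bp against 15.0 bp over all matched regions. The cluster's distal regions were on the strong side, and no comparison was made with matched regions of like strength. Signal was higher in replicate 1 at 9 of 16 regions, and 62.7% of all matched regions were higher there. The −log10 q was higher in replicate 1 at 15 of 16, as at 86.5% of all matched regions.

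AP-1 and E-box matches were the most frequent around the summits of the cluster. AP-1 factors of the Jun, Fos and Batf families act downstream of T-cell activation. Within 101 bp centred on the replicate 1 summit, 6 of 16 regions held an AP-1 match, against 18.2% of all shared regions. Of those 6, 2 were the promoter regions in Il24 and Il10. The other 4 were among the 14 distal regions, a share near the 22.1% of all shared distal regions. In 201 bp, AP-1 was matched in 5 of the 14, against 29.7% of all shared distal regions. Within 201 bp, 7 regions held 9 AP-1 matches, against 24.6% of all shared regions, and there the short E-box was found in 13, against 64.7%. Around the replicate 2 summit, the 101 bp held an E-box in 7 regions and AP-1 in 6, against 41.5% and 17.9% of all.

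RUNX factors help set T-cell identity, and their consensus was found in 4 of 16 regions, against 12.1% of all. The STAT consensus, used by the factors that answer cytokine receptors, was found in 3, in Fcmr intron 7, in Il24 and 29.6 kb downstream of Il10, against 4.29%. The ETS letters AGGAAG were found in 3 (17.2% of all), the E-box CANNTG in 5 (40.8%), the ROR letters AGGTCA in 2 (6.83%) and the NFAT letters TGGAAA in 1 (9.87%). The AHR letters GCGTG and the T-box letters AGGTGT were found in 1 region each, against 10.7% and 5.36% of all. The CTCF core was in 1, the region at the right end of the window, against 7.68%, and also in the region 40.1 kb upstream, outside the windows. Of the 14 distal regions, 4 held RUNX and 2 held STAT, against 14.0% and 4.90% of all shared distal regions. Around the replicate 2 summit, the 101 bp held RUNX in 3 regions and STAT in 3, against 12.1% and 4.23% of all. In 201 bp around the replicate 1 summit, RUNX was in 5 and STAT in 4, against 20.5% and 8.14%.

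No match within the 101 bp was found for CRE, Maf, NFIL3, the letters AGATAA read by GATA-binding factors, Blimp-1 (GAAAGTG) or Sp1/KLF (GGGCGG), which 0.446%, 2.17%, 0.634%, 3.50%, 2.63% and 11.3% of all shared regions held. This says only that these letters are not in these windows. The Maf letters end in TGAC and can run into an AP-1 or a reversed ROR match. With 16 regions, single matches carry little weight. The cluster's base composition was near that of distal regions, with a median GC content of 49.3% against 48.3% for all shared distal and 65.2% for all shared promoter regions.

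**Figure D4:**
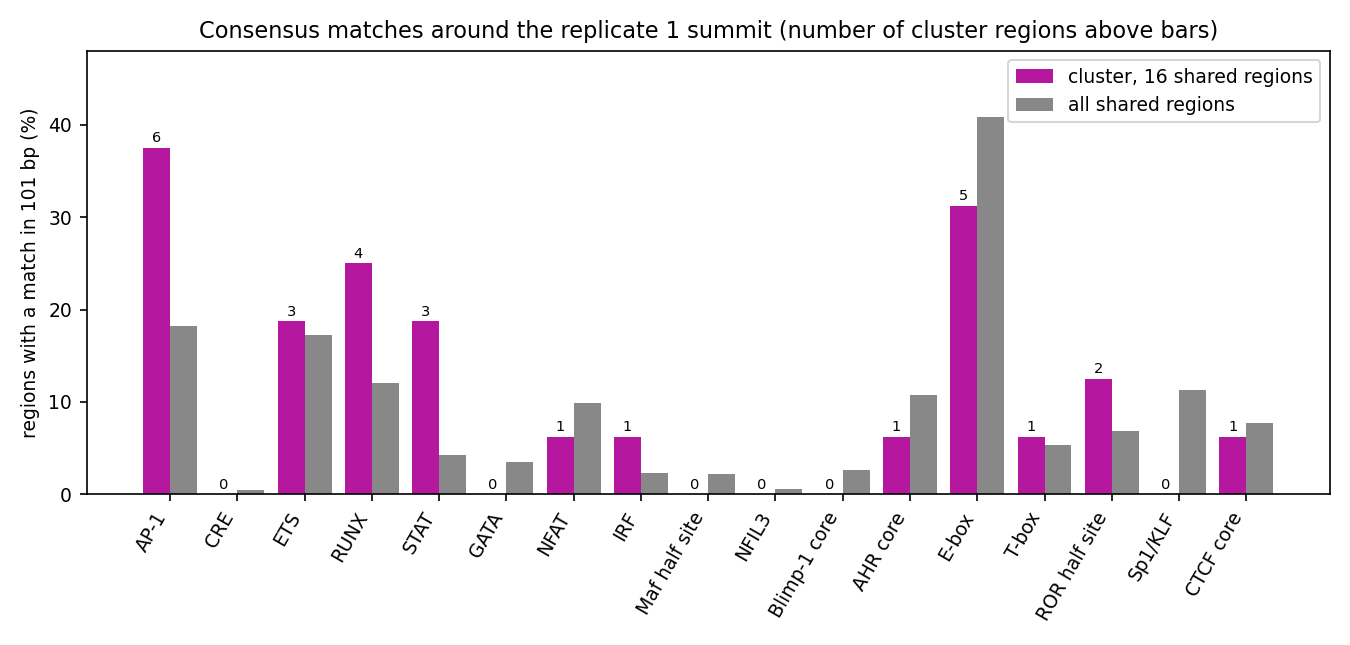
Percentage of regions with a consensus match in the 101 bp around the replicate 1 summit (vertical axis), for the 16 shared regions of the cluster (purple, number of regions above each bar) and all shared regions (grey). AP-1 was matched in 6 cluster regions, RUNX in 4 and STAT in 3, and several consensus sequences in 0.

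Other genes of the pathway were read from lists. The remaining IL-10 family genes Il22, Iltifb, Ifnl2 and Ifnl3, encoding IL-22 and its near copy and the interferon lambdas, had a promoter region in 0 of 4 cases, against the 62.8% of all genes. Il22 and Iltifb also had 0 shared distal regions, while Ifnl2 had 5 and Ifnl3 had 2. The windows of Ifnl2 and Ifnl3 overlap, so the same region can be counted for both. Il22 and Iltifb are near-identical, so reads may not be assigned uniquely to either, and a value of 0 there is uncertain.

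Among receptor and signalling genes, 9 of 12 had a promoter region in both libraries, a share near the 62.8% of all protein-coding genes. Jak1, a kinase of the receptor complex, had 13.7 and 13.6, and the receptor gene Il20ra had 13.8 and 12.5. Il10rb had 11.8 and 12.3, and Il10ra, which binds IL-10 itself, had 6.71 and 6.59. The receptor genes Il20rb, Il22ra1 and Il22ra2 had none.

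Of 20 genes for factors linked to Il10 regulation in T cells, 19 had a promoter region in both libraries, against 62.8% of all protein-coding genes. The strongest were Prdm1, which encodes Blimp-1, with 13.1 and 13.7, and Gata3 with 11.3 and 10.8. The exception was Junb, whose start lay in a peak of both libraries but whose summit was close enough in replicate 2 alone. Rbpj counted with a weak replicate 1 peak, at a signal of 1.45 and a −log10 q of 3.24, against 6.35 and 185 in replicate 2. The 5′ base of the gene lay in a peak of both libraries for 16 of 20, against 55.1% of genes. Prdm1 and Gata3 were not among the 16. An accessible promoter does not show that the factor was made or bound.

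Among 16 listed cytokine genes, 11 had promoter regions in each of the libraries, a share near the 62.8% of all protein-coding genes. The strongest were Il6 with 9.19 and 8.43 and Csf2 with 7.47 and 7.94. Il21, Il5, Ifng, Il17a and Il1b had none. The list's median of shared distal regions was 6, against 3 for all genes and 9 for Il10. Of the 16 genes, 12 had fewer distal regions than Il10, Il4 and Il13 had the same number, and Tnf with 11 and Lta with 12 had more. Per 100 kb, Il13, Tnf and Lta were denser than Il10, at 14.2, 17.6 and 19.3. Tnf and Lta are neighbours, as are Il4 and Il13, and their windows share regions. On the regulator list, 8 of 20 genes had more distal regions than Il10, 11 had fewer and 1 had the same number. Per 100 kb, 3 of the 20 were denser. Of the 10 T-cell marker genes, 3 had more, 6 had fewer and 1 had the same number, and 1 was denser. Of the 12 receptor and signalling genes, 2 had more and 10 had fewer. Among all 21853 protein-coding genes, 1247 had more distal regions than Il10 and 114, or 0.522%, were denser. The counts were not scaled to gene length, and the Il10 body is only 5.13 kb long.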

How the data were processed

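The deposited files were 2 lists of ATAC-seq peaks, 1 for each library, in narrowPeak format on mm10, each made from 1 alignment of that library alone, per the labels and deposited notes. Aligner, caller, their versions and the peak threshold are not given in the sources used here, and the reads, and so any shift for the transposase, were not analysed here. The authors' signal value in column 7 was read as a ratio (fold enrichment), from its values. The authors' −log10 p (column 8) and −log10 q (column 9) were taken as deposited, and the deposited score in column 5 was not used in any result. No scaling between libraries is stated, so values were set against the genome within a library by percentile, with ties at their middle rank. Ratios, means and SDs across the libraries used the deposited values without scaling.

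Peaks of chromosomes 1 to 19 and the sex chromosomes were merged across libraries by overlap of at least 1 bp. Genes were the 21853 protein-coding genes, with 54361 transcript starts, of GENCODE mouse release M21, and sequences came from the RefSeq copy of GRCm38. Gene windows were the body with 30 kb flanks, and 1 gene of the marker lists, Trac, was not matched. The named genes were the 4 members, genes overlapping the windows, and, from the IL-10 family, receptor, regulator and cytokine lists, the genes without a promoter region and the 2 with the strongest promoter, with Il10ra, Il10rb and those set against the Il10 distal count added after their values were seen. The members and lists were chosen with earlier results of these data known. No test was run. The counting steps were tested on simulated data with known answers, and 8 of 8 checks returned them. Analysis used Python 3.11.15, pandas 2.3.3, numpy 2.4.6 and samtools 1.23.1. Alternatives covered the peak threshold, the overlap, the flank, the promoter distance, the annotated starts, the background windows and each library alone.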

Additional observations from a re-analysis of the deposited data

How the results depend on the processing

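Over 21 settings, 46 of 57 alternative values stayed close and 11 moved. Close meant within 1.5 times a count, or within 1 SD between replicates or regions of another value. Some of the 46 could not have moved. The main percentile of the median distal signal is the mean of the 2 libraries, so leaving out either had to stay within their SD. The difference of percentile ranks was set against no difference, in its own units, and not against the main ratio. The 46 include distal counts of 10 with 20 kb flanks and 19 with 50 kb flanks against 14, and 3 promoter regions instead of 2 with 2000 bp or with all annotated starts. With 10 kb flanks the windows are shorter, and shared regions fell from 16 to 9 and distal ones from 14 to 7. With a promoter distance of 500 bp, promoter regions and members with one were both 0 instead of 2. The density percentile of the cluster, 89.5, was 82.9 with 10 kb flanks, 92.2 with 50 kb flanks, 96.4 against 250 kb tiles of chromosome 1, 96.4 against such tiles of all autosomes, and 85.7 to 88.4 with either library left out. The percentile of the median distal signal, 68.6, was 85.9 by −log10 q. Pairs of a region and a consensus, without the CTCF core added later, rose from 27 to 50 in 201 bp, which searches more sequence. Adding the stretch between the windows, an alternative chosen after seeing the data, gave 18 shared regions. The 9 distal regions of Il10 were 9 again with the 50000 strongest peaks per library. They were also 9 with −log10 q of at least 5, but the lowest value among them was 17.5, so that cutoff could remove none. The lowest among all shared regions of the windows was 17.0, so the cluster's region counts could not change at that cutoff either. No paired analysis was possible because there is only 1 group. Because depth is unknown, closed chromatin and too few reads to call a peak cannot be told apart at the Il20 and Il19 starts.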

Other observations

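The genes that border the cluster differed in their promoter calls under the 1000 bp rule. Mapkapk2 had a promoter region in both libraries, with signals of 6.87 and 7.36 (7.12 ± 0.350, SD, n = 2) and a −log10 q of 111 and 84.6. Fcmr and Pigr had none by the summit rule. For Fcmr this rests on the cutoff, because a region with signals of 15.9 and 14.9 had its summit 1205 bp upstream of the start. Mapkapk2 had 12 shared distal regions in its own body and flanks, or 11.5 per 100 kb, and Fcmr and Pigr had 6 each. The windows of Mapkapk2 and Il10 overlap and share regions downstream of Il10, so peaks there cannot be assigned to either gene from these data.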
